A study of Mus musculus with 12 samples.

Results

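The genes described here encode the enzymes that oxidize ethanol to acetaldehyde and acetaldehyde to acetate. They were chosen by function, as a list of 10 symbols: the alcohol dehydrogenases *Adh1*, *Adh4*, *Adh5* and *Adh7*, the cytochrome P450 *Cyp2e1*, catalase (*Cat*), and the aldehyde dehydrogenases *Aldh2*, *Aldh1b1*, *Aldh1a1* and *Aldh3a2*. All 10 were among the 24532 genes of the table, and all 10 passed the filter on low counts, as did 14038 genes in all.

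RNA-seq was done on whole liver from male C57BL/6 mice in 4 groups of 3 livers. WT mice carried floxed *Ahr* alleles (Ahr fl/fl) and no Cre, and *Ahr* HKO mice were Ahr fl/fl littermates with a Cre transgene driven by the albumin promoter, which acts in hepatocytes. Mice of each genotype, aged 10 to 12 weeks at the start, were fed for 5 weeks either a Lieber-DeCarli liquid diet with ethanol (5% by volume, 36% of calories) or an isocaloric control diet without ethanol. The comparisons ask what the ethanol diet does to these mRNAs in each genotype, what the genotype does on each diet, and whether the diet effect differs between genotypes.

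In hepatocytes, alcohol dehydrogenase in the cytosol takes ethanol to acetaldehyde, and CYP2E1 in the endoplasmic reticulum and catalase in peroxisomes can do the same by other chemistry. Aldehyde dehydrogenases, above all the mitochondrial ALDH2, then take acetaldehyde to acetate. CYP2E1 is best known for its induction by ethanol, which acts to a large part by stabilizing the protein, and mRNA levels like those given here do not measure it.

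Reads counted on genes numbered 46306518 to 74336255 per liver. A count of 3, taken as the smallest detectable amount, equals 0.0425 to 0.0676 CPM (read counts scaled to a common library total, with TMM factors), and this limit covers counting error only. The titles name the livers 1 to 3 within a group. The descriptions carry another number after an L, whose meaning is not given, and neither speaks of litters or batches. The *P* values of edgeR weigh a difference between groups against the variation between these livers, moderated over all tested genes.

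The label check rested on *Ahr* itself. Its level was 20.1, 16.6 and 18.3 CPM in WT control livers and 65.5, 41.3 and 63.3 CPM in *Ahr* HKO control livers, 3.09-fold higher in the livers labelled *Ahr* HKO (edgeR, adjusted *P* = 0.00167). On the ethanol diet the means were 24.9 ± 5.02 and 32.9 ± 8.55 CPM (SD, n = 3; adjusted *P* = 0.334). Counts per gene do not show a single deleted exon, so these values say nothing of the deletion. *Cyp1a2*, a well-known AhR target, was lower in the livers labelled *Ahr* HKO on the control diet (490.3 ± 114 against 154 ± 91.1 CPM; SD, n = 3; adjusted *P* = 0.0191) and on the ethanol diet (1088 ± 112 against 657 ± 27.6 CPM; adjusted *P* = 0.0457). Genotype below means the label.

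Hepatocyte markers summed to 68059 to 110994 CPM over the 12 livers, with none of the 6 markers at 0. *Ahr* HKO control liver 3 stood apart from the other livers of its group, with 108939 CPM of these markers against 69446 and 68059. The 5 Kupffer cell markers summed to 629.6 CPM in WT ethanol liver 2 and to 233 and 243 CPM in the other livers of that group. The sum of 5 stellate cell markers was 145 to 171 CPM in WT control, 180.5 to 218 in WT ethanol, 131 to 135 in *Ahr* HKO control and 166 to 189 in *Ahr* HKO ethanol livers, higher on ethanol in each genotype without overlap. In *Ahr* HKO livers the Kupffer cell sum was 246 to 608 CPM on the control diet and 152 to 188 on ethanol, and that of 5 sinusoidal endothelial markers 211 to 236 and 153 to 174, lower on ethanol without overlap. In WT livers those sums overlapped between diets (268 to 355 and 233 to 629.6 for Kupffer cells, 216 to 267 and 155 to 335 for endothelial cells). The 4 neutrophil markers summed to 7.01 to 8.56 CPM in *Ahr* HKO control and 2.41 to 3.44 in *Ahr* HKO ethanol livers, and to 1.29 to 2.78 and 4.43 to 7.89 in WT livers, with *Ly6g* at 0 throughout WT control and *Ahr* HKO ethanol livers. The 5 cholangiocyte markers summed to 6.68 to 15 CPM over all livers. The part of other cell types in the results was not tested. In whole liver, fewer cells of a type and less RNA per cell cannot be told apart.

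The members lie on 7 chromosomes of the mouse genome (GRCm38, the build that the files call mm10). The 4 alcohol dehydrogenase genes sit head to tail on the plus strand of chromosome 3, in a cluster of 6 coding genes that spans 257 kb (chr3:138198064-138455499) in the order *Adh7*, *Adh1*, *Adh6a*, *Adh6b*, *Adh4* and *Adh5*. Of the other genes of the cluster, *Adh6a* had no count in 11 of the 12 livers and 3 counts in WT control liver 3. *Cyp2e1* lies at chr7:140763819-140774990 on the plus strand and *Cat* at chr2:103453904-103485153 on the minus strand. *Aldh2* lies at chr5:121566027-121593824 on the minus strand.

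Promoter windows of 250 bases before an annotated start were found in RefSeq (GRCm38.p6) for 9 of the 10 members. There were 11 windows, since *Adh5* and *Aldh1a1* have a pair of windows each. The missing member was *Aldh2*. Each window was searched for GCGTG and its reverse complement CACGC, the core that AhR binds with its partner ARNT, for TATAAA on the gene's own strand, and for CCAAT and its reverse complement ATTGG. No matches overlapped in the windows printed here. GCGTG was in 1 of 9 members, *Aldh3a2*, at 117 bases before the start, and in 28.2% of all 32851 windows. That window lies inside the annotated span of *Aldh3a2* (chr11:61223417-61267528), before a start within the span and not its outermost end. The *Adh7* window (chr3:138217523-138217772) also lies inside its gene. The downstream windows of *Adh5* (chr3:138442843-138443092) and *Aldh1a1* (chr19:20601718-20601967) lie inside their genes as well. TATAAA was in 2 members, *Cyp2e1* and *Adh5*, and in 7.59% of all windows. CCAAT was in 6 members and in 33.8% of all windows. The TATAAA match of *Adh5* was in its upstream window only, and the CCAAT match of *Aldh1a1* in its downstream window only. These are matches of letters and not measured sites.

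The windows of 4 members are shown because their mRNAs carry the comparisons below. *Adh1* rose on ethanol in each genotype, *Cyp2e1* and *Cat* responded differently between genotypes, and *Aldh3a2* holds the GCGTG match. They read 5′ to 3′ on the gene's own strand, and capitals mark the motif matches. The windows are chr3:138277335-138277584 on the plus strand for *Adh1*, chr7:140763569-140763818 on the plus strand for *Cyp2e1*, chr2:103485154-103485403 on the minus strand for *Cat* and chr11:61267187-61267436 on the minus strand for *Aldh3a2*.
Adh1: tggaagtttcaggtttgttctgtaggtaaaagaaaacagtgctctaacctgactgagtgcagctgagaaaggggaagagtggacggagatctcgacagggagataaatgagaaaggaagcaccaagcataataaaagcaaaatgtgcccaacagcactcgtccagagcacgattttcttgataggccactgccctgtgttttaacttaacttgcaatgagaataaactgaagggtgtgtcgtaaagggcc
Cyp2e1: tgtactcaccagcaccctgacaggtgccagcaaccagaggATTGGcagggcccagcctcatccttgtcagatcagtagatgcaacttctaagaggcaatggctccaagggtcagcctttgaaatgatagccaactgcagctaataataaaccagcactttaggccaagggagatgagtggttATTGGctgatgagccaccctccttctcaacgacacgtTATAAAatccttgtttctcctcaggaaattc
Cat: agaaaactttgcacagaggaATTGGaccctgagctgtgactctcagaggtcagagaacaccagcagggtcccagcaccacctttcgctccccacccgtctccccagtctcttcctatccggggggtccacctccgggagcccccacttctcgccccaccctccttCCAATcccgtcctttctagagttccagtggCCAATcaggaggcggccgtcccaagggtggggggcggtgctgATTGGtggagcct
Aldh3a2: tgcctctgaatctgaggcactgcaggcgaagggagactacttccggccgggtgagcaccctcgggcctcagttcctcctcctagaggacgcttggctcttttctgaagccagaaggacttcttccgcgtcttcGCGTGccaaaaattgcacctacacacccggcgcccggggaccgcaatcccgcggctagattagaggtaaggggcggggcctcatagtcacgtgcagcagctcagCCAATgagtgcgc

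*Adh1* has no match to the 3 motifs in its window. *Cyp2e1* has TATAAA at 31 bases before the start, with ATTGG at 68 and 210 bases. *Cat* has 4 matches to CCAAT or ATTGG and no TATAAA. The *Aldh3a2* window has CCAAT at 13 bases before the start besides its GCGTG.

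Levels of different genes were compared per length, on the deposited FPKM (fragments scaled to transcript length and library size). By group mean the order was the same in every group: *Cyp2e1*, *Adh1*, *Cat*, *Aldh2*, *Aldh1a1*, *Adh5*, *Aldh3a2*, *Adh4*, *Aldh1b1* and *Adh7*. In WT control livers *Cyp2e1* averaged 3993 ± 297 FPKM (SD, n = 3), rank 30 of all genes, and *Adh1* 957 ± 75.4 FPKM, rank 76. *Cat* at 941 ± 158 FPKM overlapped *Adh1* there, and *Aldh2* at 589.6 ± 19.3 FPKM lay below both. *Adh7*, the class best known from stomach epithelium, was near the bottom at 0.665 ± 0.189 FPKM.

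On the ethanol diet the upper ranks drew together in WT livers. *Cyp2e1* averaged 2572 ± 223 FPKM and *Adh1* 2069 ± 260 FPKM there (SD, n = 3), and these 2 genes came closest to overlap: the highest *Adh1* liver had 2368 FPKM and the lowest *Cyp2e1* liver 2369. In *Ahr* HKO livers on ethanol *Cyp2e1* stood at 3407 ± 284 and *Adh1* at 1568 ± 155 FPKM. *Aldh2* and *Aldh1a1* overlapped in the ethanol groups of either genotype and did not in the control groups. *Aldh3a2* and *Adh4* overlapped in 3 of the 4 groups, with the exception of *Ahr* HKO on ethanol.

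**Figure D1:**
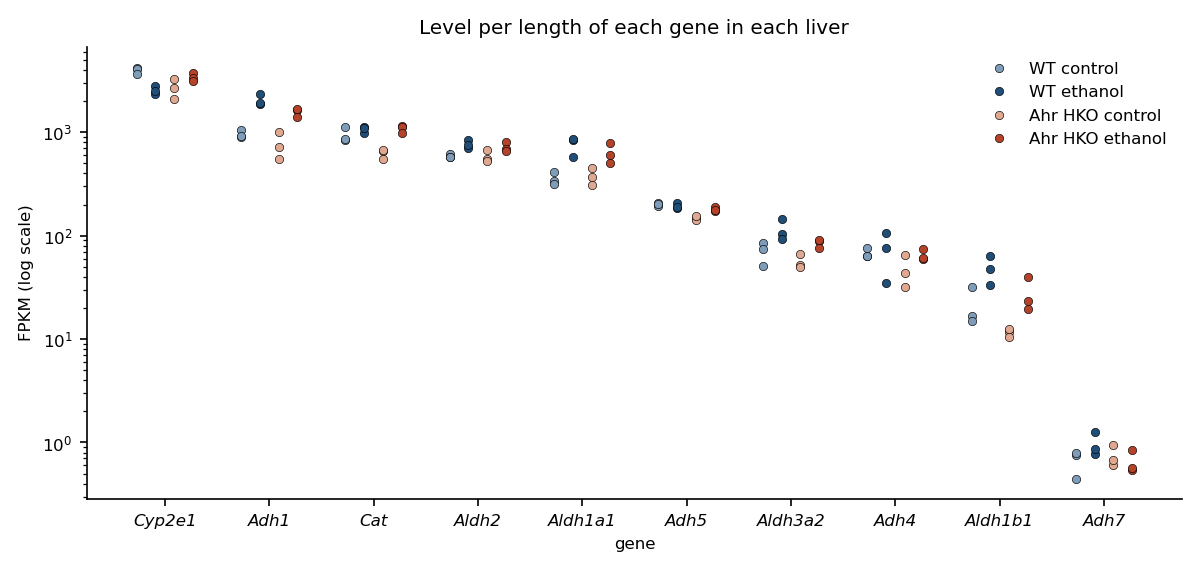
FPKM of each member on a log axis, 1 point per liver, coloured by group. The genes are ordered by their mean in WT control livers, from *Cyp2e1* at 3993 FPKM to *Adh7* at 0.665 FPKM, and *Adh1* approaches *Cyp2e1* in WT ethanol livers.

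Together the 10 genes took 1.62, 1.48 and 1.38% of all counts in WT control livers and 1.46, 1.72 and 1.5% in WT ethanol livers. They took 1.11, 0.956 and 1.29% in *Ahr* HKO control livers and 1.76, 1.59 and 1.48% in *Ahr* HKO ethanol livers. The *Ahr* HKO control livers had the lowest shares of the 4 groups, without overlap with any other group. These shares rest mostly on *Cyp2e1*, *Cat*, *Aldh2* and *Adh1*.

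*Adh1*, the main ethanol-oxidizing dehydrogenase of the liver, rose on the ethanol diet in WT and in *Ahr* HKO livers. WT livers had 1467, 1294 and 1293 CPM when fed the control diet and 2538, 2778 and 2457 CPM when fed ethanol. *Ahr* HKO livers had 1003, 727 and 1486 CPM when fed the control diet and 2367, 2416 and 2091 CPM when fed ethanol. All 6 ethanol livers were above all 6 control livers. The rise was 1.92-fold in WT (log2 fold change 0.94, SE 0.13, adjusted *P* = 0.00876) and 2.14-fold in *Ahr* HKO (1.10, SE 0.257, adjusted *P* = 0.0188). The difference between these rises was 0.16 on the log2 scale, with a 95% interval of -0.49 to 0.81 (adjusted *P* = 0.748). After quantile normalization of log2(FPKM + 1), limma gave 1.49 in WT and 0.93 in *Ahr* HKO livers (adjusted *P* = 0.00711 and 0.0113). The difference was as low as -0.56 in the other settings and passed in none of them.

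The *Adh1* call in *Ahr* HKO livers was lost without control liver 1, ethanol liver 1 or ethanol liver 2, with log2 fold changes of 1.05, 1.07 and 1.06 and adjusted *P* of 0.0611, 0.0503 and 0.054. Without *Ahr* HKO control liver 3, its highest control liver, the value was 1.40 (adjusted *P* = 0.00538). In WT the call held in each fit that left out 1 liver.

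*Adh5*, the glutathione-dependent formaldehyde dehydrogenase that has low affinity for ethanol, moved in another way. WT livers had 347, 331 and 345 CPM when fed the control diet and 297, 291 and 287 CPM when fed ethanol, a small difference without overlap that did not pass in edgeR (log2 fold change -0.22, 95% interval -0.44 to -0.01, adjusted *P* = 0.167). DESeq2 called that difference (-0.22, adjusted *P* = 0.0397). *Ahr* HKO livers had 247, 225 and 271 CPM when fed the control diet and 334, 302 and 321 CPM when fed ethanol, 1.29-fold higher (0.36, SE 0.115, adjusted *P* = 0.0487). The diet effects differed by 0.59 (SE 0.132, adjusted *P* = 0.0102), and this difference stayed past the threshold in all 12 fits that left out 1 liver. The *Ahr* HKO rise itself was near the threshold and was called in only 1 of 6 such fits, that without control liver 3, with an adjusted *P* of up to 0.136 without control liver 1 or 2 or any of the ethanol livers. It was also lost with library totals alone (0.30, adjusted *P* = 0.0542) and with no filter on low counts (adjusted *P* = 0.0582). A replicate block (adjusted *P* = 0.0921) and limma on quantile-normalized values (0.11, adjusted *P* = 0.213) lost it as well.

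*Adh4*, which also acts on retinol and larger alcohols, was not called on ethanol by edgeR in either genotype. Its values spread most in WT ethanol livers, at 46.1, 87.3 and 132 CPM, against 87.6, 106 and 87.6 CPM in WT control livers. In *Ahr* HKO livers it had 59.9, 84.5 and 46 CPM on the control diet and 105, 84.7 and 90.8 CPM on ethanol. Those groups barely failed to overlap, and the log2 fold change was 0.56 (95% interval 0.04 to 1.08, adjusted *P* = 0.0921). DESeq2 called it there (0.58, adjusted *P* = 0.0342). Without *Ahr* HKO control liver 2, the highest of its group, the adjusted *P* was 0.0235.

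*Adh7* had between 1 and 2.31 CPM in every liver, above the smallest detectable amount. Its log2 fold change on ethanol was 0.34 in WT (95% interval -0.35 to 1.04) and -0.13 in *Ahr* HKO (-0.81 to 0.55), and neither passed. Of 5 stomach epithelium markers (*Gkn1*, *Gkn2*, *Muc5ac*, *Tff1* and *Pgc*), all were at 0 in 11 livers, and 1 had 0.0403 CPM in *Ahr* HKO control liver 3. The gene overlaps the noncoding gene 0610031O16Rik, and the sources used here do not state whether counting used the strand.

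*Cyp2e1*, the microsomal ethanol oxidase, was lower on ethanol in WT livers in counts. WT livers had 7746, 7607 and 6682 CPM when fed the control diet and 4126, 4292 and 4177 CPM when fed ethanol, 0.572 times the control level (log2 fold change -0.81, SE 0.147, adjusted *P* = 0.0204). The ethanol values lay within a narrow band far below all control values. *Ahr* HKO livers had 4926, 3607 and 6288 CPM when fed the control diet and 7014, 6252 and 6178 CPM when fed ethanol. These groups overlapped, and the log2 fold change of 0.39 did not pass (95% interval -0.13 to 0.91, adjusted *P* = 0.215). The diet effects differed by 1.2 (SE 0.26, adjusted *P* = 0.00881), past the threshold in all 12 fits without 1 liver.

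The direction of *Cyp2e1* in WT livers depends on the scale. After quantile normalization of log2(FPKM + 1), the scale described for the study, the change was 0.28 (limma, adjusted *P* = 0.377) instead of -0.81. Without that step, limma on the same FPKM values gave -0.63 (adjusted *P* = 0.0123). The gene ranked 28 to 34 of all tested genes in WT control livers and 20 to 31 in WT ethanol livers, so its rank rose while its level fell. The mean log2(FPKM + 1) went from 11.96 to 11.33 before and from 11.53 to 11.81 after quantile normalization. In counts the call was also lost without WT control liver 1, 2 or 3 in turn, with log2 fold changes of -0.77, -0.78 and -0.87 and adjusted *P* of 0.0653, 0.0725 and 0.0578.

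*Cat*, the peroxisomal catalase, rose on ethanol in *Ahr* HKO livers. They had 1467, 1679.9 and 1886 CPM when fed the control diet and 3226, 3098 and 2809 CPM when fed ethanol, 1.81-fold higher (log2 fold change 0.86, SE 0.151, adjusted *P* = 0.00745), a call that held without any 1 liver. WT livers had 3022, 2316 and 2288 CPM when fed the control diet and 2502, 2528 and 2635 CPM when fed ethanol, with a log2 fold change of 0.01 (95% interval -0.36 to 0.37). The diet effects differed by 0.85 (SE 0.206, adjusted *P* = 0.0143), past the threshold in all 12 fits without 1 liver.

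The aldehyde dehydrogenases were higher on ethanol or showed no call. *Aldh2*, the mitochondrial enzyme with the highest affinity for acetaldehyde, had 2479, 2396 and 2314 CPM in WT control and 2679, 2829 and 2722 CPM in WT ethanol livers. It had 2213, 1996 and 2851 CPM in *Ahr* HKO control and 3313, 2847 and 2824 CPM in *Ahr* HKO ethanol livers. The WT groups did not overlap, but the log2 fold change of 0.20 did not pass (95% interval -0.09 to 0.48, adjusted *P* = 0.361), nor did 0.35 in *Ahr* HKO (-0.07 to 0.76, adjusted *P* = 0.172). Without *Ahr* HKO control liver 3, the latter was 0.51 (adjusted *P* = 0.0461).

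*Aldh1b1*, a mitochondrial relative of *Aldh2* with lower affinity for acetaldehyde, was called higher on ethanol in *Ahr* HKO livers. It had 40.4, 37.1 and 77.5 CPM in WT control and 146, 97.2 and 73.5 CPM in WT ethanol livers, which overlapped and did not pass (1.03, 95% interval 0.23 to 1.83, adjusted *P* = 0.11). It had 28.4, 23.6 and 31.5 CPM in *Ahr* HKO control and 99.8, 48.7 and 60 CPM in *Ahr* HKO ethanol livers, 2.5-fold higher (1.32, SE 0.266, adjusted *P* = 0.0115). The rise in *Ahr* HKO livers passed in every fit without 1 liver. The change in WT livers was called by DESeq2 (1.04, adjusted *P* = 0.0135). The difference between the diet effects was 0.29 (95% interval -0.76 to 1.34).

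*Aldh1a1*, a cytosolic enzyme that oxidizes retinal as well as acetaldehyde, rose in each genotype. It had 877, 741 and 673 CPM in WT control and 1716, 1546 and 1100.3 CPM in WT ethanol livers, 1.9-fold higher (log2 fold change 0.93, SE 0.194, adjusted *P* = 0.0305). It had 966, 619 and 827 CPM in *Ahr* HKO control and 1736, 1114 and 1392 CPM in *Ahr* HKO ethanol livers, 1.76-fold higher (0.81, SE 0.224, adjusted *P* = 0.0323). All 6 ethanol livers were above all 6 control livers. The WT call was lost without WT control liver 1, 2 or 3 or WT ethanol liver 1 or 2 (adjusted *P* up to 0.109), and the *Ahr* HKO call without control liver 2 or 3 or ethanol liver 1 or 3 (up to 0.0897). The gene overlaps 3 other annotated genes.

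*Aldh3a2*, which oxidizes fatty aldehydes, had 287, 252 and 170.3 CPM in WT control and 331, 406 and 283 CPM in WT ethanol livers (log2 fold change 0.52, 95% interval 0.02 to 1.03, adjusted *P* = 0.178). It had 222, 165 and 175 CPM in *Ahr* HKO control and 308, 311 and 274 CPM in *Ahr* HKO ethanol livers, 1.59-fold higher (0.67, SE 0.144, adjusted *P* = 0.0139). The WT groups overlapped by a little, the *Ahr* HKO groups did not. The *Ahr* HKO call held without any 1 liver.

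**Figure D2:**
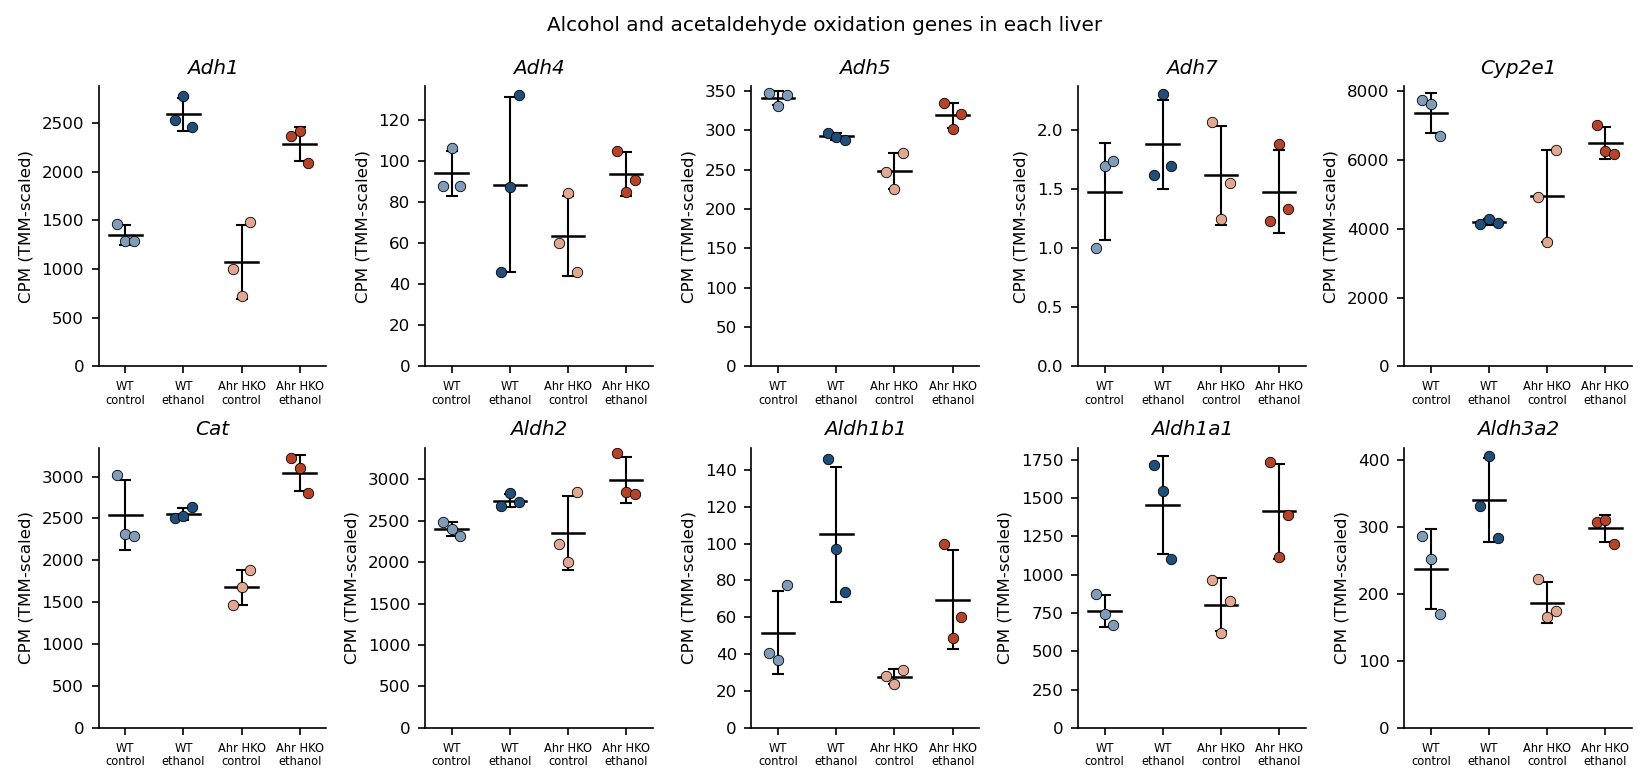
CPM on TMM-scaled totals of each member, 1 point per liver and 1 panel per gene, with each axis from 0. Horizontal lines are group means and bars are SD (n = 3). *Adh1* and *Aldh1a1* are higher in all 6 ethanol livers than in all 6 control livers, and *Cyp2e1* in WT ethanol livers lies at 4126 to 4292 CPM, below all WT control livers.

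Counted over the list, in WT livers 2 of 10 members were called higher on ethanol (*Adh1* and *Aldh1a1*) and 1 lower (*Cyp2e1*). Of all tested genes 4.24% were called higher and 4.48% lower. In *Ahr* HKO livers 6 of 10 were called higher (*Adh1*, *Adh5*, *Cat*, *Aldh1b1*, *Aldh1a1* and *Aldh3a2*), where 15% of all tested genes were. None was called lower there by edgeR, nor at an unadjusted *P* under 0.05, by DESeq2 or by limma, and 16.1% of all tested genes were called lower by edgeR. The median log2 fold change of the members was 0.27 in WT and 0.61 in *Ahr* HKO livers, and that of all tested genes 0.01 and -0.02. Without *Ahr* HKO control liver 3 the count in *Ahr* HKO livers was 6 as well, with *Aldh2* called and *Aldh1a1* not. Of all tested genes, 1811 were called higher in that fit.

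A difference in diet effect between genotypes was called for 3 of 10 members, *Adh5*, *Cyp2e1* and *Cat*. In all 3 the log2 fold change on ethanol was more positive in *Ahr* HKO than in WT livers. Of all tested genes, 11.2% were called in that direction and 11.1% in the other. With limma on quantile-normalized values 1 of these passed, *Adh5*, while *Cyp2e1* had 0.24 (adjusted *P* = 0.682) and *Cat* 0.47 (adjusted *P* = 0.112). For the other 7 members the interval of the difference included 0. The widest of these was that of *Aldh1b1* (-0.76 to 1.34) and the narrowest that of *Aldh2* (-0.29 to 0.60).

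**Figure D3:**
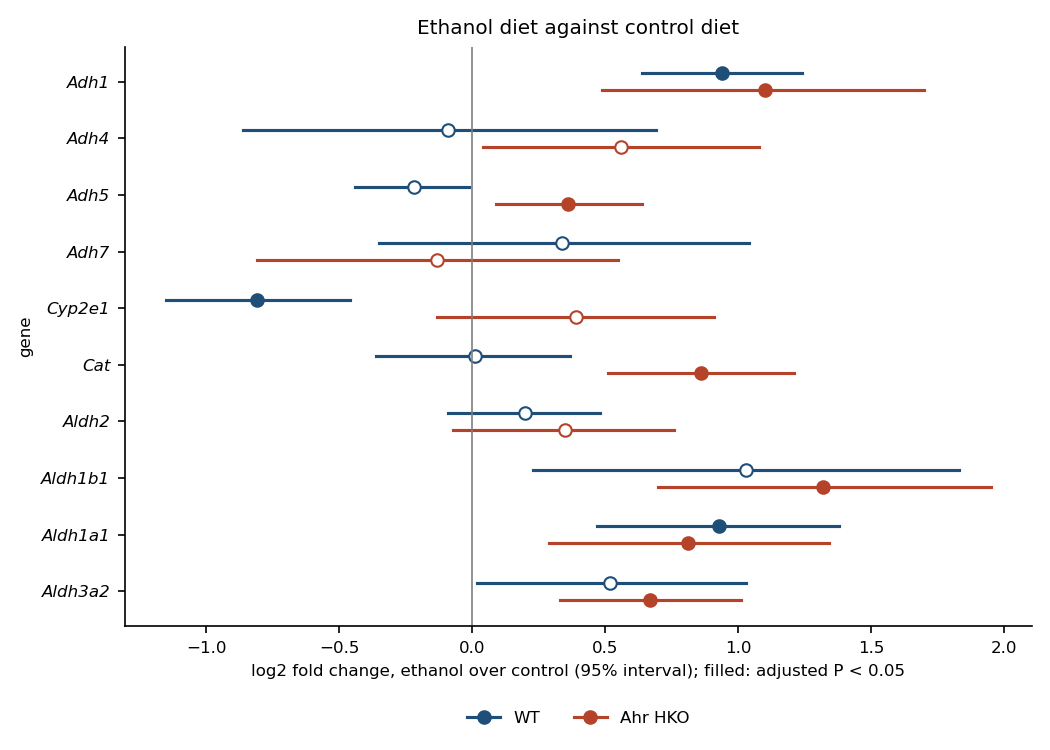
Log2 fold change of each member on ethanol over control in WT and *Ahr* HKO livers, from edgeR fits of 3 against 3 livers; lines are 95% intervals, unadjusted, and filled points passed an adjusted *P* of 0.05. The genotypes lie apart for *Cyp2e1* (-0.81 and 0.39 in counts, with 0.28 in WT after quantile normalization) and *Cat* (0.01 and 0.86). They lie close together for *Adh1* (0.94 and 1.10 in counts, 1.49 and 0.93 after quantile normalization).

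The mRNA levels of the oxidation routes were compared as the ratio of FPKM values within a liver. This ratio does not depend on library scaling, and it does not measure protein or activity. The ratios were chosen after the values of single genes were seen. The ratio of *Adh1* to *Cyp2e1* was 0.246, 0.221 and 0.252 in WT control livers and 0.800, 0.842 and 0.766 in WT ethanol livers. It was 0.265, 0.262 and 0.307 in *Ahr* HKO control livers and 0.439, 0.503 and 0.440 in *Ahr* HKO ethanol livers. It was 3.35-fold higher on ethanol in WT and 1.66-fold higher in *Ahr* HKO, and on ethanol the *Ahr* HKO ratio was 0.573 times that of WT. None of these groups overlapped. The exact two-sided permutation test gave *P* = 0.1 for each of them, the smallest that 3 against 3 livers allow, and 0.145 after adjustment over 16 tests.

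The ratio of *Adh1* to *Aldh2*, the main enzymes of the first and the second step, was 1.62 ± 0.0787 in WT control and 2.7 ± 0.112 in WT ethanol livers (SD, n = 3). It was 1.28 ± 0.23 in *Ahr* HKO control and 2.19 ± 0.202 in *Ahr* HKO ethanol livers. The rise was 1.67-fold in WT and 1.73-fold in *Ahr* HKO, again without overlap (exact permutation *P* = 0.1 for each). The ratio of *Cat* to *Cyp2e1* rose 1.77-fold in WT livers, from 0.235 ± 0.0292 to 0.414 ± 0.0143, without overlap. In *Ahr* HKO livers it went from 0.241 ± 0.0655 to 0.32 ± 0.0151 with overlap (exact permutation *P* = 0.3).

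**Figure D4:**
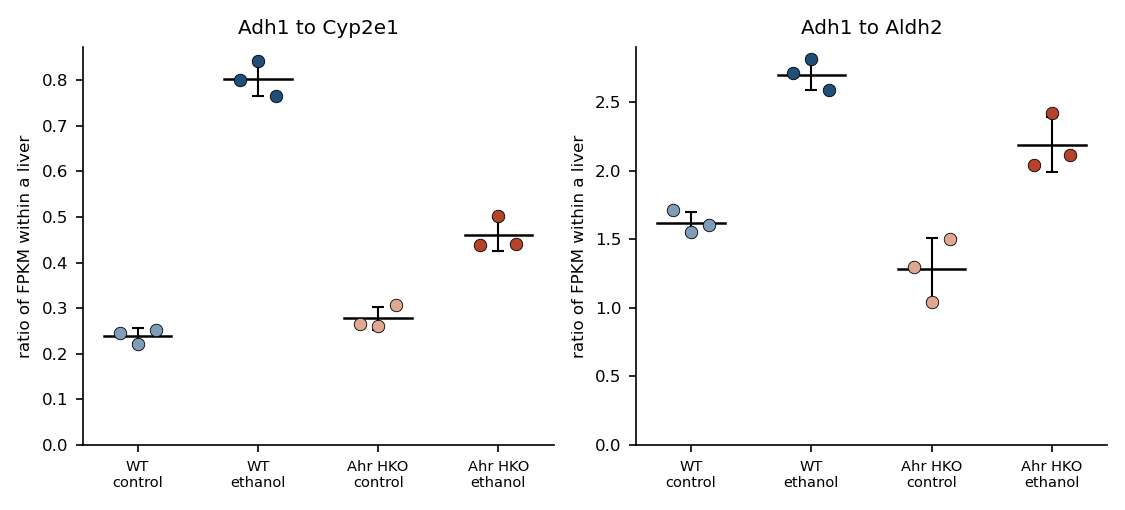
Ratio of FPKM of *Adh1* to *Cyp2e1* (left) and of *Adh1* to *Aldh2* (right) within each liver, by group, with axes from 0; lines are means and bars SD (n = 3). The ratio to *Cyp2e1* is 0.766 to 0.842 in WT ethanol livers and 0.439 to 0.503 in *Ahr* HKO ethanol livers, and the ratio to *Aldh2* is higher on ethanol in each genotype.

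On the control diet 2 of 10 members were called lower in *Ahr* HKO than in WT livers, *Adh5* and *Cat*, where 14.4% of all tested genes were called lower. None was called higher by edgeR, nor at an unadjusted *P* under 0.05, by DESeq2 or by limma, and 15.3% of all tested genes were called higher by edgeR. *Adh5* averaged 341 ± 8.83 CPM in WT and 248 ± 23.3 CPM in *Ahr* HKO livers (SD, n = 3; log2 fold change -0.46, SE 0.11, adjusted *P* = 0.019). *Cat* averaged 2542 ± 416 and 1678 ± 209 CPM (-0.60, SE 0.174, adjusted *P* = 0.0379). The groups did not overlap for either gene. The *Adh5* call was lost without WT liver 1, 2 or 3 or *Ahr* HKO liver 1 (adjusted *P* up to 0.0637), and the *Cat* call without WT liver 1, 2 or 3 or *Ahr* HKO liver 1 or 2 (up to 0.113).

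For *Aldh1b1*, *Adh4* and *Cyp2e1* the control groups did not overlap either, with no call. How many of all tested genes did not overlap is not given here. *Aldh1b1* had a log2 fold change of -0.89 (95% interval -1.56 to -0.23, adjusted *P* = 0.0502), *Adh4* of -0.57 (-1.07 to -0.06, adjusted *P* = 0.0893) and *Cyp2e1* of -0.57 (-1.10 to -0.04, adjusted *P* = 0.0966). DESeq2 called 5 members lower, these among them, and 2396 of all 14038 tested genes lower. Without *Ahr* HKO liver 3, *Cyp2e1* was called at -0.78 (adjusted *P* = 0.0244) and *Adh1* at -0.64 (adjusted *P* = 0.0377), which with *Adh5* and *Cat* made 4 members called lower. Of all tested genes, 1781 were called lower without that liver. *Adh1* had -0.33 with that liver (95% interval -0.92 to 0.25). *Aldh1b1* was called without WT liver 2 (adjusted *P* = 0.0412) and *Adh4* without *Ahr* HKO liver 2 (adjusted *P* = 0.0157). The median over the members was -0.40, against 0.00 for all tested genes.

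On the ethanol diet no member was called between genotypes by edgeR or by limma, and 0.684% of all tested genes were called higher and 0.378% lower in *Ahr* HKO livers by edgeR. At an unadjusted *P* under 0.05 there was 1 member, *Cyp2e1*, which DESeq2 also called. It averaged 4198 ± 84.7 CPM in WT and 6481 ± 463 CPM in *Ahr* HKO livers (SD, n = 3), 1.54-fold higher without overlap (log2 fold change 0.63, 95% interval 0.33 to 0.92, adjusted *P* = 0.0672). After quantile normalization that value was -0.09. In edgeR the intervals of the other members included 0, from the narrow one of *Adh5* (-0.09 to 0.35) to that of *Adh4* (-0.71 to 0.87). *Adh1* also depended on the scale, with -0.18 in edgeR and as low as -0.93 in the other settings, none of which called it. Its mean quantile-normalized log2(FPKM + 1) was 11.44 in WT and 10.51 in *Ahr* HKO livers. The median over the members was 0.02, against -0.01 for all tested genes.

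**Figure D5:**
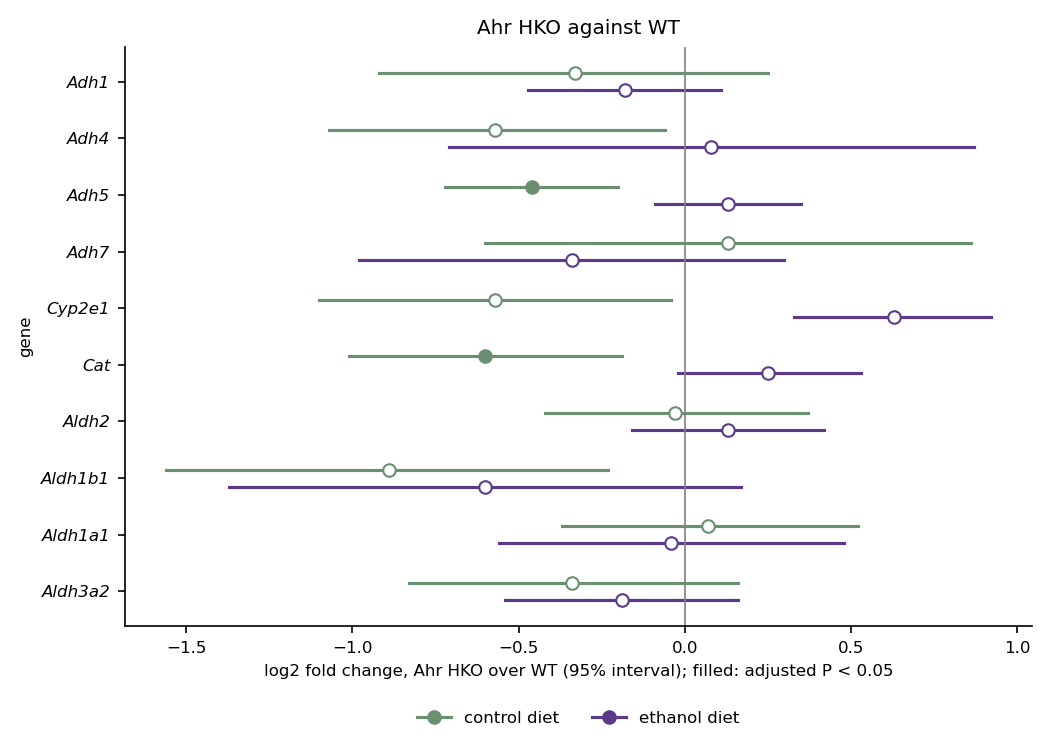
Log2 fold change of each member in *Ahr* HKO over WT livers on the control and on the ethanol diet, with 95% intervals, unadjusted, and filled points past an adjusted *P* of 0.05. *Adh5* (-0.46) and *Cat* (-0.60) are called lower on the control diet, and no member is called on the ethanol diet, where *Cyp2e1* lies at 0.63 in counts and -0.09 after quantile normalization.

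The pathway around these enzymes was read from fixed lists. The comparisons within a genotype or a diet share livers, so the values are set side by side. The counts of each list stand against the shares of all tested genes called on ethanol, 4.24% higher and 4.48% lower in WT livers and 15% higher and 16.1% lower in *Ahr* HKO livers. Of 16 other aldehyde dehydrogenase genes, 13 were tested. On ethanol 1 was called higher in WT livers and 4 were called higher in *Ahr* HKO livers, with a median log2 fold change over the list of 0.02 and 0.27. *Aldh8a1*, an enzyme of the kynurenine route of tryptophan breakdown, was 1.46-fold higher on ethanol in *Ahr* HKO livers (adjusted *P* = 0.0268), against a log2 fold change of -0.14 in WT. *Aldh5a1*, succinate semialdehyde dehydrogenase, was 1.7-fold higher in *Ahr* HKO livers (adjusted *P* = 0.0086), with a log2 fold change of 0.38 in WT (adjusted *P* = 0.0984). *Aldh1l2*, the mitochondrial formyltetrahydrofolate dehydrogenase, was the gene called in WT, at a low level of 0.224 ± 0.0233 CPM in control and 0.838 ± 0.205 CPM in ethanol livers (SD, n = 3; adjusted *P* = 0.0312). In *Ahr* HKO livers its log2 fold change was -0.77 (adjusted *P* = 0.214). *Aldh1a7*, a close copy of *Aldh1a1* whose reads may be shared with it, rose 1.57-fold in *Ahr* HKO livers (adjusted *P* = 0.0319). Its log2 fold change in WT was 0.16 (adjusted *P* = 0.336).

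Of the list of other reductases and the enzymes that work with *Adh5*, 7 of 9 were tested. On ethanol 4 were called higher and 1 lower in WT livers, and 3 higher in *Ahr* HKO livers, with a median of 0.53 and 0.33. *Cbr1*, carbonyl reductase, rose 4.19-fold in WT (adjusted *P* = 0.000399) and 2.48-fold in *Ahr* HKO livers (adjusted *P* = 0.014). *Esd*, which hydrolyses the product of the *Adh5* reaction, rose 1.49-fold in WT (adjusted *P* = 0.0138) and 1.47-fold in *Ahr* HKO livers (adjusted *P* = 0.0097). *Akr7a5*, an aldehyde reductase, rose 1.82-fold in *Ahr* HKO livers (adjusted *P* = 0.0023) and had a log2 fold change of 0.18 in WT. *Gsr*, glutathione reductase, rose 1.44-fold in WT (adjusted *P* = 0.0242) and had a log2 fold change of -0.17 in *Ahr* HKO livers.

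All 14 genes of acetate activation and the NADH shuttles were tested. On ethanol 1 was called higher and 1 lower in each genotype, with a median of 0.06 in WT and 0.14 in *Ahr* HKO livers. *Acss2*, which activates acetate in the cytosol and nucleus, fell by 1.35 on the log2 scale in WT livers (adjusted *P* = 0.0151) and had 1.02 in *Ahr* HKO livers (adjusted *P* = 0.146), and the diet effects differed (2.37, SE 0.59, adjusted *P* = 0.0164). Its *Ahr* HKO values were 66.1, 52.9 and 73.8 CPM in control and 241, 59.7 and 89.1 CPM in ethanol livers, so that ethanol liver 1 alone lay far above the rest. On the control diet its *Ahr* HKO level was 0.323 times that of WT (adjusted *P* = 0.00179). *Acss3*, a mitochondrial relative, rose by 1.75 in WT (adjusted *P* = 0.011) and had 1.2 in *Ahr* HKO livers (adjusted *P* = 0.12). *Ldha*, lactate dehydrogenase, fell by 1.44 in *Ahr* HKO livers (adjusted *P* = 0.00141) and had -0.45 in WT (adjusted *P* = 0.164). Its control mean was 1914 CPM in *Ahr* HKO against 872 in WT livers (adjusted *P* = 0.00556). The ethanol means were 704 and 639 CPM. *Slc25a11*, the oxoglutarate carrier of the malate-aspartate shuttle, rose by 0.65 in *Ahr* HKO livers (adjusted *P* = 0.00418) and had -0.01 in WT.

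Of 16 genes for the microsomal partners of *Cyp2e1* and for hydrogen peroxide metabolism, 15 were tested. On ethanol 1 was called lower in WT livers, *Hao1*, a peroxisomal oxidase that makes hydrogen peroxide (log2 fold change -1.2, adjusted *P* = 0.0268), and the median over the list was -0.06. *Hao1* had -0.28 in *Ahr* HKO livers (adjusted *P* = 0.188). In *Ahr* HKO livers 3 were called higher, among them *Prdx5*, a peroxiredoxin (0.60, adjusted *P* = 0.0115, with -0.18 in WT), and the median was 0.37. *Gpx1*, glutathione peroxidase, was also called there (1.92, adjusted *P* = 0.0494), but its values were 1956, 482 and 368 CPM on ethanol and it spread as widely in WT control livers, at 1984, 291 and 1766 CPM.

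Retinoid genes were listed because *Adh1*, *Adh4*, *Adh7* and *Aldh1a1* also act on retinol or retinal, and 11 of 12 were tested. On ethanol 3 were called higher and 2 lower in WT livers, and 4 higher and 2 lower in *Ahr* HKO livers, with a median of 0.26 and 0.65. *Cyp26a1*, which breaks down retinoic acid and is induced by it, had 5.57, 4.36 and 4.72 CPM in WT control and 50.7, 41.3 and 89.4 CPM in WT ethanol livers. It had 2.58, 1.71 and 1.65 CPM in *Ahr* HKO control and 111, 23.8 and 48 CPM in *Ahr* HKO ethanol livers. The rises were 3.63 on the log2 scale in WT (adjusted *P* = 0.00184) and 4.94 in *Ahr* HKO (adjusted *P* = 0.00281). *Rarb*, a retinoic acid receptor gene, rose by 1.23 in *Ahr* HKO livers (adjusted *P* = 0.0429) and had 0.75 in WT (adjusted *P* = 0.0901). Its *Ahr* HKO values were 1.27, 1.31 and 1.39 CPM in control and 5.03, 1.99 and 2.3 CPM in ethanol livers, with ethanol liver 1 far above the rest. *Dhrs3*, a retinal reductase, rose by 1.54 in *Ahr* HKO livers (adjusted *P* = 0.00814), with -0.09 in WT. *Bco1*, which cleaves beta-carotene, fell by 0.83 in WT (adjusted *P* = 0.037) and by 2.33 in *Ahr* HKO livers (adjusted *P* = 0.00134).

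Genes known for their place along the liver lobule were listed because *Cyp2e1* is pericentral. Of 10 pericentral genes, on ethanol 3 were called higher and 1 lower in WT livers and 3 higher in *Ahr* HKO livers, with a median of 0.00 and 0.19. *Rhbg*, an ammonia transporter, rose by 2.11 on the log2 scale in WT (adjusted *P* = 0.00591) and by 1.56 in *Ahr* HKO (adjusted *P* = 0.0128), and *Cyp1a2* by 1.15 and 2.1 (adjusted *P* = 0.0142 and 0.00837). *Cyp2a5*, whose reads may be shared with *Cyp2a4*, had 461, 224 and 459.9 CPM in WT control and 3846, 3721 and 3562 CPM in WT ethanol livers (3.28, adjusted *P* = 0.00213). In *Ahr* HKO livers its mean rose from 130.4 to 1863 CPM (3.84, adjusted *P* = 0.00264). *Lgr5*, a Wnt target, was lower in *Ahr* HKO than in WT livers on the control diet (-1.33, adjusted *P* = 0.00296).

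Of 9 periportal genes, on ethanol 2 were called higher in WT and 6 in *Ahr* HKO livers, with a median of 0.13 and 1.04. *Pck1*, the gluconeogenic enzyme, rose by 1.51 in WT (adjusted *P* = 0.00442) and by 1.33 in *Ahr* HKO (adjusted *P* = 0.012). *Cyp2f2*, a periportal P450, rose by 1.33 in *Ahr* HKO (adjusted *P* = 0.0023) with -0.16 in WT, and its diet effects differed (1.49, SE 0.17, adjusted *P* = 0.000398). *Hal*, histidine ammonia lyase, rose by 1.26 in *Ahr* HKO (adjusted *P* = 0.00281) with 0.13 in WT. The row of *Ass1*, a urea cycle gene known as abundant in liver, held only 70 to 263 counts per library. It was at 1.58 ± 0.496 CPM in *Ahr* HKO control and 4.23 ± 0.637 CPM in *Ahr* HKO ethanol livers (SD, n = 3; 1.43, adjusted *P* = 0.00866), with 0.23 in WT.

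Between genotypes on the control diet, where 15.3% of all tested genes were called higher and 14.4% lower, the counts called higher and lower in *Ahr* HKO livers were 0 and 2 of 13 for other aldehyde dehydrogenases, 1 and 2 of 7 for reductases and 2 and 4 of 14 for acetate activation and shuttles. They were 1 and 2 of 15 for microsomal partners and hydrogen peroxide, 2 and 4 of 11 for retinoid handling, 0 and 3 of 10 for pericentral and 1 and 2 of 9 for periportal genes. Of the list genes named above, *Gsr*, *Ldha*, *Bco1* and *Pck1* were called higher on the control diet. Those called lower were *Aldh8a1*, *Aldh5a1*, *Akr7a5*, *Acss2*, *Slc25a11*, *Gpx1*, *Cyp26a1*, *Dhrs3*, *Rarb*, *Cyp2a5*, *Lgr5*, *Cyp1a2*, *Cyp2f2* and *Hal*. On the ethanol diet edgeR called 2 pericentral genes lower, *Cyp1a2* and *Cyp2a5* (-0.99, adjusted *P* = 0.0436), and 1 periportal gene higher, *Cyp2f2* (0.84, adjusted *P* = 0.0379).

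The genes whose pattern was most like that of a member were sought among 7515 genes with a mean of at least 10 CPM, by the mean absolute difference of centred log2 CPM over the 12 livers. For *Adh1* these were *Idh2* (0.088), *Rida* (0.133) and *Nr1i3* (0.142). *Idh2* averaged 102, 208, 78 and 171 CPM in WT control, WT ethanol, *Ahr* HKO control and *Ahr* HKO ethanol livers, the same order as *Adh1*. For *Cyp2e1* they were *Mccc2* (0.122), *Ivd* (0.137) and *Selo* (0.138). *Ivd* averaged 201, 103, 147 and 191 CPM in the same order of groups, lowest in WT ethanol livers like *Cyp2e1*. For *Aldh2* they included *Atg3* (0.047) and *Nadk* (0.061).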

How the data were processed

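RNA-seq libraries of poly(A) RNA (TruSeq Stranded mRNA, paired-end) from 12 livers in 4 groups of 3 were used, grouped by the labels alone. The authors deposited whole-number read counts per gene with no normalization. The deposited FPKM are the authors' counts scaled to gene length and library size, and the deposited TPM are a further scaling that entered no result, with sums of 924962 to 987569 per library. The submitters' processing notes list Trimmomatic 0.38, HISAT2 2.1.0, Bowtie2 2.3.4.1, StringTie 1.3.4d and mm10. Whether counting used the strand is not given in the sources used here.

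Counts were tested with edgeR (version 4.0.16, R 4.3.3). The filterByExpr step kept 14038 of 24532 genes, and TMM factors ranged from 0.925 to 1.157. Quasi-likelihood fits used the 6 livers of the groups compared, or all 12 for the difference in diet effect. *P* values were adjusted over all tested genes (Benjamini-Hochberg) and called under 0.05, with no minimum fold change. The pipeline was tested on simulated data. Alternatives were DESeq2 1.42.0, other scalings, no filter, 1 fit of all libraries, a replicate block, a minimum fold change of 1.5, limma 3.58.1 on log2(FPKM + 1) and each liver left out. Limma without quantile normalization was added after the data were seen. No 2 libraries held the same counts (66 pairs compared).

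The members and lists were chosen with earlier results of these data known. All 10 members are named. Of each list at most 4 genes are named, those with the smallest adjusted *P* in any comparison of a pair of groups, and for *Adh1*, *Aldh2* and *Cyp2e1* the 3 most similar genes by log2 CPM with a prior count of 2. Of the genes this rule names, 2 are not reported here. Exact permutation tests used scipy 1.17.1.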

Additional observations from a re-analysis of the deposited data

Results flagged for a closer look

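The diet effect differed between genotypes, by the interaction test of edgeR, for *Adh5* (log2 difference 0.59, adjusted *P* = 0.0102), *Cyp2e1* (1.2, adjusted *P* = 0.00881) and *Cat* (0.85, adjusted *P* = 0.0143). For *Adh5* and *Cyp2e1* the fitted changes in counts lay on opposite sides of 0 in WT and *Ahr* HKO livers. Neither gene was called by edgeR in both: *Adh5* in WT had -0.22 (adjusted *P* = 0.167) and *Cyp2e1* in *Ahr* HKO 0.39 (adjusted *P* = 0.215). For *Cat* the fitted change was near 0 in WT livers (0.01) and 0.86 in *Ahr* HKO livers. With limma on quantile-normalized values the differences of *Cyp2e1* (adjusted *P* = 0.682) and *Cat* (adjusted *P* = 0.112) did not pass. *Ahr* HKO control livers had the lowest mean of the 4 groups for *Adh5* and *Cat*, and WT ethanol livers had it for *Cyp2e1*.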

How the results depend on the processing

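Over 50 fold changes of the members and 750 refits, 14 of them called, the sign of a called value was kept in 210 of 211 refits. The exception was *Cyp2e1* on ethanol in WT livers, 0.28 with limma on quantile-normalized values. Besides this one, 39 refits lost a call, and 20 gained one. The cause was not tested.

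With DESeq2 5 members were called on ethanol in WT (2335 of all tested genes, against 1224). Between genotypes it called 5 on the control diet (4859 of all genes, against 4166) and 1 on ethanol (1521, against 149). With quantile-normalized limma 1 member was called in WT (1325 of all genes) and 1 for the difference between genotypes (3260 of all genes). With a fold change above 1.5, 1 member was called between genotypes on the control diet (2782 of all genes). Library totals alone called 317 of all genes between genotypes on ethanol, 1 fit of all libraries 575, and limma without quantile normalization 501 there and 2037 in WT.

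Leaving out 1 liver gave 1 to 3 members on ethanol in WT (360 to 1011 of all genes), 3 to 6 in *Ahr* HKO (2588 to 3795) and 3 for the difference (2267 to 3084). It gave 0 to 4 members between genotypes on the control diet (2630 to 3737) and 0 on ethanol (10 to 193). The fewest came without *Ahr* HKO ethanol liver 1 for the 3 members on ethanol in *Ahr* HKO, without any 1 WT control liver for the 1 member in WT, and without WT control liver 1 or 3 or *Ahr* HKO control liver 1 for the 0 on the control diet.

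Against TMM, library totals alone shifted the median of all genes to 0.149 on ethanol in WT, to -0.203 between genotypes on ethanol and to -0.226 for the difference. Genes called higher and lower became 1198 and 430 in WT (595 and 629 with TMM), 70 and 247 between genotypes on ethanol (96 and 53) and 906 and 2518 for the difference (1576 and 1561). Limma without quantile normalization gave 1631 and 406, 78 and 423, and 810 and 2712.

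Replicate numbers did not pair the livers: the correlations of deviations from group means were -0.088 to 0.178 over 12 pairs. The replicate block called 539 of all genes on ethanol in WT, 2970 in *Ahr* HKO and 2745 for the difference. Between genotypes it called 2968 of all genes on the control diet and 247 on ethanol. It called 2 members in WT, 5 in *Ahr* HKO and 3 for the difference. Between genotypes without ethanol it called 2 other members than the fit with no block: *Adh4* (adjusted *P* = 0.0431) and *Aldh1b1* (0.0299) passed, and *Adh5* (0.0592) and *Cat* (0.11) did not.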
